A study of Mus musculus with 2 samples.

Results

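The genes described here are 31 genes of the eicosanoid pathway, which makes, senses and clears prostaglandins, thromboxane, leukotrienes and the related lipid mediator platelet-activating factor (PAF). They were taken as a list of gene symbols and matched to the symbols that the deposited tables carry, and no threshold on a measured value was part of that rule. The list was chosen with earlier results of these data known, so counts over it are a description. All 31 symbols matched 1 gene each, out of 55536 annotated genes, and all 31 are among the 22028 annotated as protein-coding. The genes fall into phospholipases, cyclooxygenases, terminal prostanoid synthases, lipoxygenase pathway genes, receptors and enzymes that inactivate the products.

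Eicosanoids are short-lived signalling lipids made on demand. A phospholipase A2 frees arachidonic acid from membranes, and from there cyclooxygenases lead to prostanoids while lipoxygenases lead to leukotrienes, each finished by an enzyme specific for 1 product. Macrophages both make and sense these lipids, and the inducible cyclooxygenase gene Ptgs2 is a classical target of Toll-like receptor signalling.

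The study sequenced polyadenylated RNA from macrophages grown from bone marrow of C57BL/6J mice, primary cells exposed to a bacterial ligand at 100 ng/ml for 30 min, with 1 µg of RNA to start each library. The labels name the ligand as Lipid A in 1 field and as lipoprotein A in others, and nothing in them settles which was added. Both libraries, biological replicates 1 and 2, belong to this single group and have 1 biosample record each, both tied to 1 donor record, and sex and age were not collected. No untreated cells were sequenced, so the values are levels 30 min into treatment and no induction can be read from them.

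Replicate 1 held 37784941 expected counts over genes and replicate 2 held 51904470. A gene with 0 counts may therefore have had up to 3 counts, or 0.0794 and 0.0578 CPM, counts scaled to library size. Levels are TPM, a relative abundance of transcripts scaled for gene length, and can be compared between genes, and pairs of values are those of replicate 1 and then replicate 2. Ratios are of replicate 2 to replicate 1 in counts scaled by TMM, a library scaling that centres most genes on no change. All 10 macrophage marker genes reached 1 TPM in each library, with Lyz2 at 15907 and 22127 TPM and Apoe at 12607 and 11288 TPM. Among them Cd14, a co-receptor for lipopolysaccharide, was 1.94-fold higher in replicate 2, and Mrc1, the mannose receptor, was at a ratio of 0.598. In bulk RNA, fewer cells of a type and less RNA per cell cannot be told apart.

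Of the 31 pathway genes, 20 reached 1 TPM in each library, beside 45.3% of all protein-coding genes. There were 13 that reached 10 TPM in each library and 3 that reached 100 TPM, namely Ptafr, Alox5ap and Pla2g15. Ptger3 and Hpgd reached 1 TPM in replicate 2 alone, the other 9 were below 1 TPM in both libraries, and Alox15 had 0 counts in both. The median over the 31 genes was 5.36 TPM in replicate 1 and 7.12 TPM in replicate 2. In the plot of levels by gene, most of the pairs of points lie close together, and the long lines belong to Ptgs2, Ptger3 and Hpgd.

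**Figure D1:**
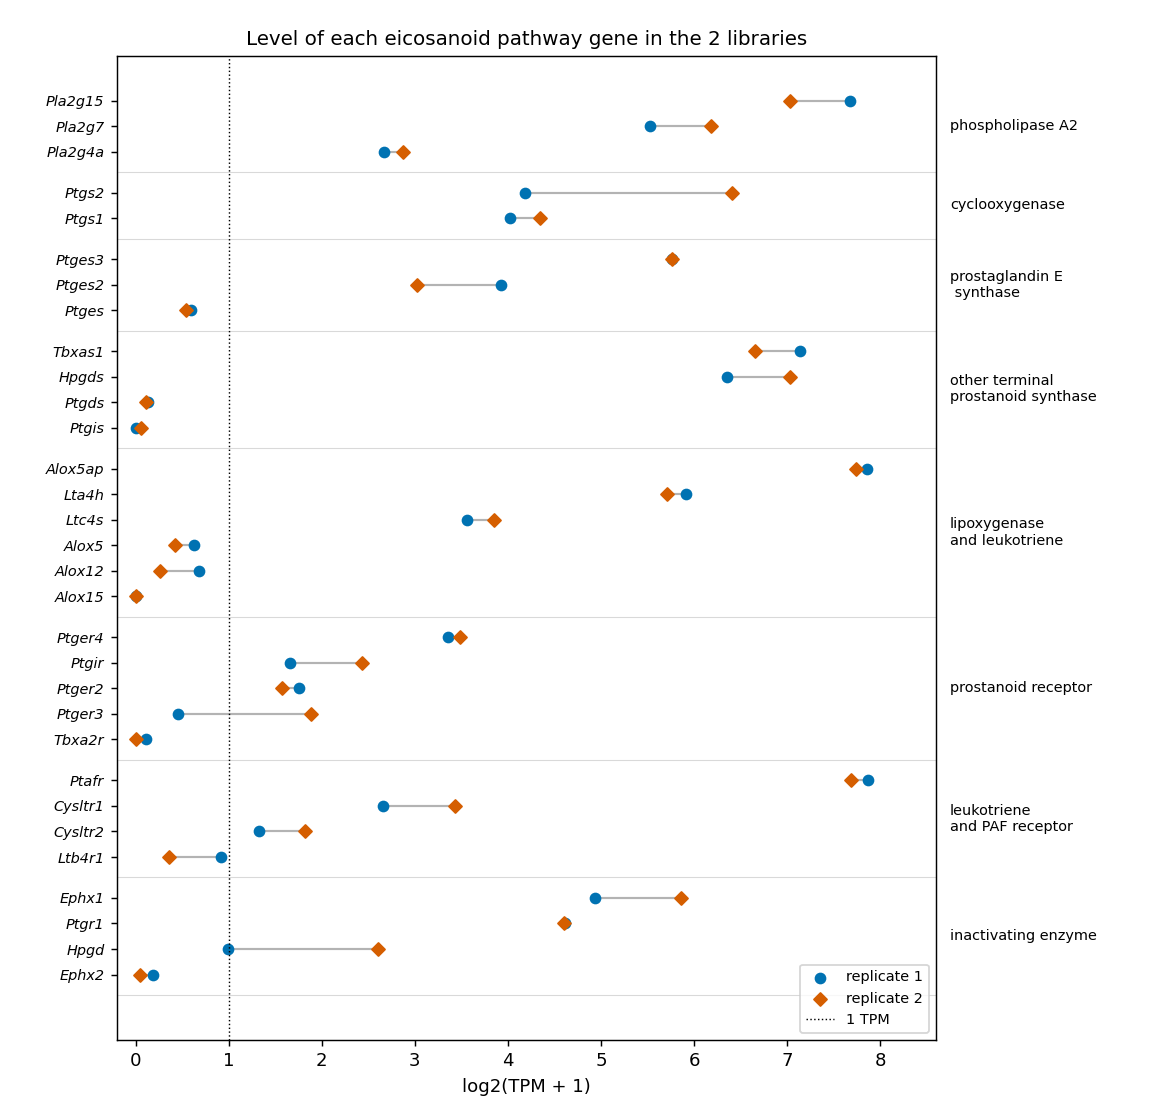
Level of the 31 eicosanoid pathway genes, as log2(TPM + 1) on the horizontal axis, in replicate 1 (blue circles) and replicate 2 (orange diamonds), grouped by role; the dotted line marks 1 TPM. Ptafr and Alox5ap lie furthest to the right in both libraries, and 9 genes lie left of the dotted line in both.

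The phospholipases differed widely in level. Pla2g15, the lysosomal phospholipase A2, was at 203 and 129 TPM (166 ± 52.1, SD, n = 2). Pla2g7, the secreted hydrolase that inactivates PAF, was at 45 and 71.9 TPM. Pla2g4a, the cytosolic phospholipase A2 that releases arachidonic acid for eicosanoid synthesis, was at 5.36 and 6.32 TPM, from 347 and 576 counts. The order Pla2g15, Pla2g7, Pla2g4a was the same in both libraries, and Pla2g15 stood 37.9 and 20.5 times above Pla2g4a in TPM. The ratio between libraries was 0.599 for Pla2g15 and 1.51 for Pla2g7, so these genes differed in opposite directions, while that of Pla2g4a was 1.11 with a 95% counting interval of 0.974 to 1.28.

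The cyclooxygenases carry out the committed step to prostanoids. Ptgs1 (ENSMUSG00000047250.13, chromosome 2, 36230426 to 36252272, plus strand), the constitutive enzyme COX-1, was at 15.2 and 19.3 TPM (17.3 ± 2.91, SD, n = 2), from 956 and 1616 counts. Ptgs2 (ENSMUSG00000032487.8, chromosome 1, 150100031 to 150108227, plus strand), the inducible enzyme COX-2, was at 17.1 and 83.6 TPM (50.4 ± 47.0, SD, n = 2), from 1792 and 12359 counts. The genes were thus near each other in replicate 1 and far apart in replicate 2, where Ptgs2 stood 4.33 times above Ptgs1, against 1.13 times in replicate 1. Of the TPM of the pair, Ptgs2 held 53.0% and 81.2%. Ptgs2 was 4.63-fold higher in replicate 2 (95% counting interval 4.40 to 4.87, log2 ratio 2.21), which placed it 56 from the top of the 12266 genes tested. The ratio of Ptgs1 was 1.13 (1.05 to 1.23).

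Of the 13 pathway genes that reached 10 TPM in each library, Ptgs2 had the largest ratio between them, and the sequence at its start is shown for that reason, as RefSeq gives it on GRCm38.p6. The stretch runs from 250 bases before the start to the last base before it, chr1:150099781-150100030 on the plus strand. Capitals mark the palindrome TTGCGCAA, a form of the C/EBP site, and a loose form of the NF-kB site, GGG and CC with any 5 bases between.
Ptgs2 promoter: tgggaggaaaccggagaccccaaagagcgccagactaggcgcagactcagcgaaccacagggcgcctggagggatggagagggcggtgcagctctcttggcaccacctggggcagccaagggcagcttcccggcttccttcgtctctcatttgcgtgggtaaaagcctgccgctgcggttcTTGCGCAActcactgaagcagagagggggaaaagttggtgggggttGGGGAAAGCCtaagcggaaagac
The first base of TTGCGCAA lies at -69 and that of the loose NF-kB form at -23 from the start. Just after the start, at chr1:150100035-150100064, an E-box CACGTG at +17 overlaps a TGACGT read on the minus strand at +13, the core of the cAMP response element, and the overlapping run is in capitals.
Ptgs2 after the start: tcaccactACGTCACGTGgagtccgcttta
Motifs were searched on both strands of windows of 300 bases, 250 before to 50 after each RefSeq start. TTGCGCAA occurred in 60 of 32851 such windows (0.183%), and of the 26 pathway genes with a window only in that of Ptgs2. CACGTG occurred in 7.15% of all windows and in those of Ptges2 and Ptgs2, and TGACGT in 7.51% and, of the pathway genes, in Ptgs2. The NF-kB form is so loose that 50.8% of all windows and 14 of the 26 hold it. Positions are counted from the annotated RefSeq start, and the start used in these cells was not mapped. A match is a description of the letters and no binding was measured.

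Prostaglandin E2 can be finished by 3 synthase genes, which stood in very different ranges. Ptges3, the cytosolic synthase that is also the Hsp90 co-chaperone p23, was at 53.2 and 53.3 TPM. Ptges2, a membrane-associated synthase, was at 14.2 and 7.12 TPM, of which its coding transcript held only 1.44 and 1.28 TPM. Ptges, the inducible microsomal synthase that is usually coupled with COX-2, was at 0.51 and 0.45 TPM, from 43 and 42 counts. Ptges was therefore below 1 TPM in both libraries, including the library with the high Ptgs2, and its ratio of 0.656 had a counting interval of 0.418 to 1.03. Ptges3 stood 104 and 118 times above Ptges in TPM, but 52.4 and 45.1 times in the second quantification. There Ptges was at 0.849 and 1.09 TPM, of which its coding transcript held 0.407 and 0.339 TPM. In the main quantification that coding transcript was at 0.51 and 0.34 TPM.

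The other terminal synthases were either abundant or nearly undetected. Tbxas1, thromboxane A synthase, was at 140 and 99.9 TPM (120 ± 28.6, SD, n = 2), from 5546 and 6053 counts. Hpgds, the haematopoietic prostaglandin D synthase, was at 80.6 and 130 TPM (105 ± 34.6, SD, n = 2), from 5579 and 13397 counts. Their order turned over between the libraries: Hpgds stood at 0.574 of the TPM of Tbxas1 in replicate 1 and at 1.30 in replicate 2. The same turn was seen in the second quantification, at 0.723 and 1.51. Ptgds, the lipocalin-type prostaglandin D synthase, had 1 count in each library, and Ptgis, prostacyclin synthase, had 0 and 2 counts, both at or under the limit of 3 counts.

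The leukotriene branch was uneven along its steps. Alox5ap, the membrane protein FLAP that presents arachidonic acid to the lipoxygenase of this branch, was at 231 and 214 TPM (222 ± 12.2, SD, n = 2), from 4624 and 7061 counts. Alox5, that lipoxygenase, had 14 and 15 counts, or 0.540 and 0.340 TPM. Alox5ap thus stood 427 and 628 times above Alox5 in TPM, and 333 and 572 times in the second quantification. Of the Alox5ap level, 173 and 205 TPM lay in protein-coding transcripts, which turned over the order of the libraries. Protein-coding transcripts accounted for 0.20 and 0.10 TPM of Alox5, the rest being assigned to transcripts of other annotated types, such as retained intron. Downstream, Lta4h, the hydrolase that makes leukotriene B4, was at 59.2 and 51.3 TPM, and Ltc4s, the synthase that makes leukotriene C4, at 10.8 and 13.4 TPM. Lta4h stood 5.49 and 3.82 times above Ltc4s.

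Of the lipoxygenases outside the leukotriene branch, Alox15 had 0 counts in both libraries. Alox12, the platelet-type lipoxygenase, had 41 and 18 counts, or 0.60 and 0.20 TPM, a ratio of 0.295 with a counting interval of 0.159 to 0.525. The summed level of megakaryocyte and platelet markers was 973 TPM in replicate 1 and 255 TPM in replicate 2, nearly all of it Pf4. Of the 5 markers tested, 3 were lower in replicate 2 beyond sampling noise, beside 31.3% of all genes, and 2 were within it. Of the 7 markers, 2 reached 1 TPM in each library, Pf4 at 962 and 250 TPM and Ppbp at 9.05 and 1.96 TPM. Among the others Treml1 was at 0.92 and 1.66 TPM, and Gp9 had 3 and 1 counts. Their part in the level of Alox12 was not tested.

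Receptors for prostanoids were expressed at low to moderate levels, summing to 14.2 and 19.2 TPM. Ptger4, the receptor EP4, which raises cAMP on binding prostaglandin E2, led at 9.26 and 10.2 TPM (9.71 ± 0.636, SD, n = 2). Ptger2, the other cAMP-raising receptor EP2, was at 2.38 and 1.97 TPM, so that Ptger4 stood 3.89 and 5.16 times above it. Ptgir, the prostacyclin receptor, was at 2.15 and 4.39 TPM, a ratio of 1.84 (1.53 to 2.23). Tbxa2r, the thromboxane receptor, had 3 and 0 counts, which contrasts with the level of thromboxane synthase in the same libraries. Ptger4 shares 82 bases of exon with Ttc33 on the opposite strand, a gene with 764 and 1335 counts. Whether counting used strand is not given in the sources used here, so reads in that overlap cannot be told apart.

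Ptger3 (ENSMUSG00000040016.16, chromosome 3, 157566892 to 157645888, plus strand), the receptor EP3, which mostly lowers cAMP, had 23 and 227 counts, or 0.370 and 2.69 TPM. Its 6.62-fold higher level in replicate 2 (95% counting interval 4.31 to 10.7) was the largest ratio among the 25 pathway genes tested and stood 14 from the top of all 12266 genes. The interval is wide because of the low count in replicate 1. In replicate 1, 14 of the 23 counts were assigned to Ptger3-203, a transcript annotated with a retained intron.

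Lipid mediator receptors outside the prostanoid group were led by Ptafr (ENSMUSG00000056529.7, chromosome 4, 132564067 to 132582683, plus strand), the receptor for PAF. It was at 232 and 205 TPM (219 ± 19.1, SD, n = 2), from 19552 and 24360 counts, a level above that of 97.4% of protein-coding genes. Ptafr stood 25.1 and 20.2 times above Ptger4, the most abundant prostanoid receptor gene. Cysltr1, a receptor for cysteinyl leukotrienes, was at 5.29 and 9.79 TPM, and Cysltr2, its relative, at 1.51 and 2.52 TPM. Both were 1.67-fold higher in replicate 2, with counting intervals of 1.5 to 1.86 and 1.15 to 2.46. Ltb4r1, the high-affinity receptor for leukotriene B4, had 25 and 11 counts, or 0.890 and 0.280 TPM, and did not pass the filter for testing. Neutrophils, which carry this receptor, were represented by 10 markers whose sum was 335 TPM in replicate 1 and 67.9 TPM in replicate 2. Of these, 4 reached 1 TPM in each library. S100a9 led them with 183 and 37.1 TPM, followed by S100a8 with 124 and 18.1 TPM. Ly6g and Retnlg had 1 and 3 counts in replicate 1 and 0 in replicate 2. Their part in the level of Ltb4r1 was not tested.

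Among the inactivating enzymes, Ptgr1, which reduces the double bond of prostaglandins after their oxidation and also acts on leukotriene B4, was at 23.5 and 23.3 TPM. Ephx1, microsomal epoxide hydrolase, was at 29.6 and 57.2 TPM, a ratio of 1.81 (1.69 to 1.94). Ephx2, the soluble epoxide hydrolase, had 6 and 2 counts. Hpgd (ENSMUSG00000031613.9, chromosome 8, 56294585 to 56321043, plus strand), the dehydrogenase that starts prostaglandin inactivation, had 35 and 250 counts, or 0.990 and 5.06 TPM. It was 4.79-fold higher in replicate 2 (3.36 to 7.04) and stood 49 from the top of all genes tested. The gap between the successive enzymes Ptgr1 and Hpgd was accordingly 23.7-fold in replicate 1 and 4.60-fold in replicate 2.

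The promoters of Ptger3 and Hpgd are shown because these genes, with Ptgs2, were beyond 2-fold higher in replicate 2, and that of Ptafr because it is the most abundant receptor gene, with a ratio of 0.836 (0.821 to 0.852). All are RefSeq windows on GRCm38.p6, plus strand, 250 bases ending just before the start, at chr3:157566626-157566875, chr8:56294302-56294551 and chr4:132563817-132564066. The RefSeq start lay 24 bases from that of the most abundant coding transcript for Ptger3, 33 bases for Hpgd and 0 for Ptafr. Capitals mark the loose NF-kB form.
Ptger3 promoter: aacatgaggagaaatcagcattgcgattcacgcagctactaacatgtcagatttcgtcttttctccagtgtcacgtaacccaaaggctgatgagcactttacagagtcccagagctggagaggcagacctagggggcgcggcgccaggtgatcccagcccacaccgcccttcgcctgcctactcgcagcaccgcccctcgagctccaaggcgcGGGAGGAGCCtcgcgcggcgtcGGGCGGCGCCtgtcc
Hpgd promoter: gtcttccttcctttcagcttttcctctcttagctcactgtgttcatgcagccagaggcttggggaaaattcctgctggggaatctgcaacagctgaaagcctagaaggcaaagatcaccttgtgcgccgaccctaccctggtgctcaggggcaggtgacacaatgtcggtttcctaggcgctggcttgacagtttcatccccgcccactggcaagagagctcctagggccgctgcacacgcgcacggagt
Ptafr promoter: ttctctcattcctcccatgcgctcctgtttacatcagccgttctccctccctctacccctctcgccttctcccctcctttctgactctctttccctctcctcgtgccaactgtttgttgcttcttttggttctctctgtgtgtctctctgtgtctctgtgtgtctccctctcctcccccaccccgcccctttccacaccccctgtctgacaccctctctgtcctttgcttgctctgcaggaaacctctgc
The Ptger3 stretch holds it at -37 and -15 from its start. Of the 6 motifs searched, the Hpgd and Ptafr stretches hold none, and Hpgd has a TATAAA at +5, just past the printed end. TATAAA occurred in 13.6% of all windows and in 4 of the 26 pathway windows (Ephx1, Hpgd, Pla2g4a and Tbxas1). GAGGAAG, a core of the site for the myeloid factor PU.1, occurred in 13.6% of all windows and in 7 of the 26. No motif was present in all 3 of Ptgs2, Ptger3 and Hpgd.

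Between the libraries, 25 of the 31 genes had enough counts for testing, and Ephx2, Ltb4r1, Alox15, Ptgds, Ptgis and Tbxa2r did not. Beyond 2-fold, 3 of the 25 were higher in replicate 2 (Ptgs2, Ptger3 and Hpgd), beside 5.09% of the 12266 genes tested, and 1 was lower (Alox12), beside 3.12%. In either direction that is 4 of 25, beside 8.21% of all genes. Alox12, with its low counts, was not beyond 2-fold in the second quantification, which called the same 3 genes higher. Differences beyond sampling noise were called with an exact two-sided binomial test, adjusted by Benjamini-Hochberg over all genes, which compares these 2 libraries only. It called 10 of the 25 higher in replicate 2 and 8 lower, beside 32.2% and 31.3% of all genes, or 18 in either direction beside 63.5%. The 7 that did not pass were Pla2g4a, Ptges, Alox5, Alox5ap, Ltc4s, Ptger4 and Ptgr1. By that exact test the adjusted p was 3.98e-27 for Ptger3, 2.59e-24 for Hpgd, 1.74e-05 for Alox12 and 0.00379 for Ptgs1.

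The median log2 ratio was 0.05 over the pathway genes and 0.00 over all genes. The median fold in either direction was 1.51 for the pathway genes and 1.21 for all genes tested. Scaling by total counts instead of TMM shifted the median of all genes to 0.12 on the log2 scale and the split of calls from 10 higher and 8 lower to 13 higher and 6 lower. Ptgir then passed 2-fold, and the log2 ratio of Ptges3 went from -0.089 to 0.029. Ptgr1, within noise under both scalings, also changed sign, and the other 23 genes kept their direction under total counts.

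**Figure D2:**
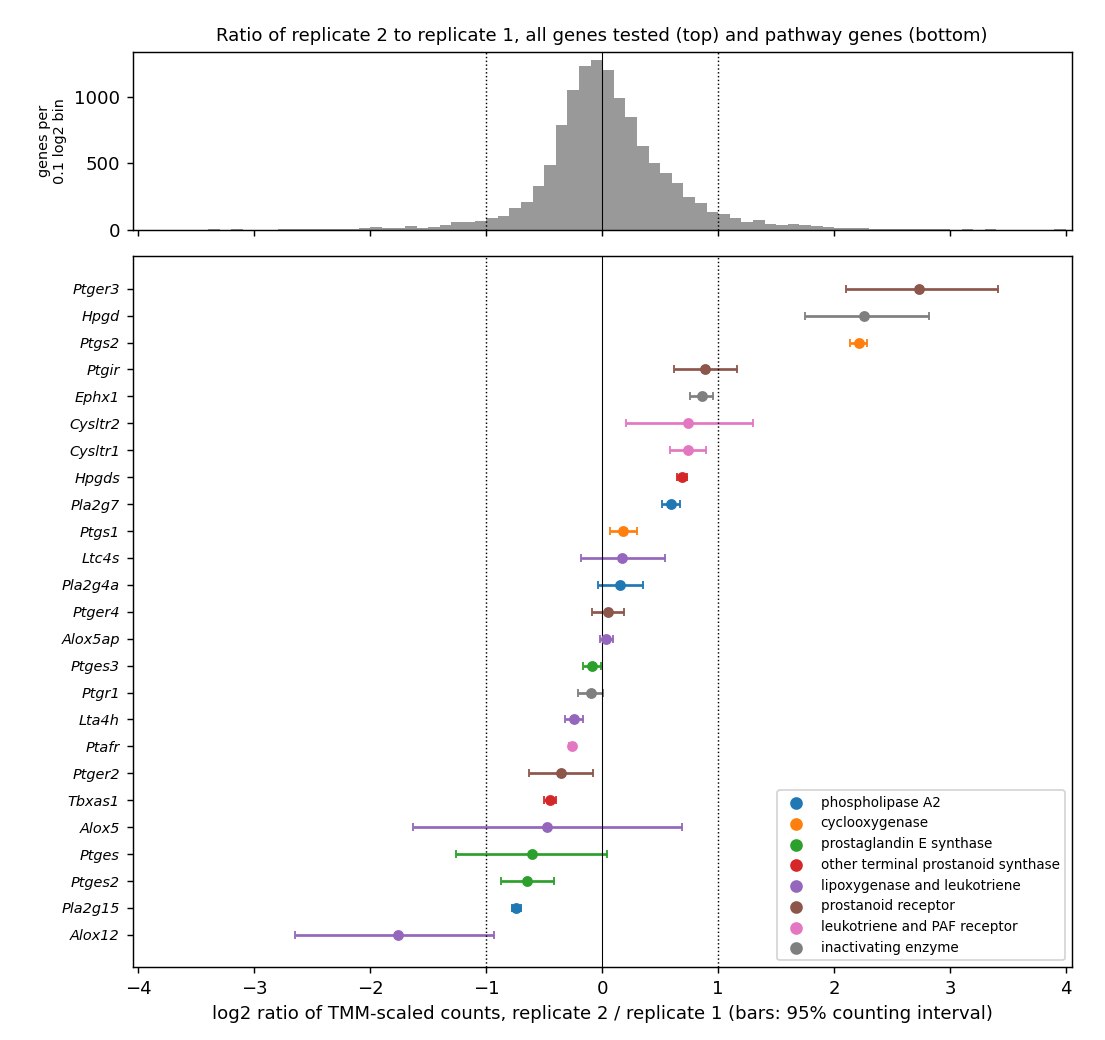
Top, number of genes per bin of 0.1 in the log2 ratio of replicate 2 to replicate 1 over the genes tested. Any ratio beyond the axis is counted in the end bin. Bottom, the same ratio for the 25 pathway genes tested, coloured by role. Bars are 95% counting intervals and dotted lines mark 2-fold. Ptger3, Hpgd and Ptgs2 lie beyond the right dotted line with their whole interval, and Alox12 lies beyond the left one with an interval that crosses it.

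Summed by role, the cyclooxygenases went from 32.4 to 103 TPM between replicates 1 and 2 and the inactivating enzymes from 54.2 to 85.6 TPM. The other sums were closer. Phospholipases summed to 254 and 208 TPM, prostaglandin E synthases to 67.9 and 60.8 TPM, and other terminal synthases to 221 and 230 TPM. The lipoxygenase branch summed to 302 and 279 TPM, and leukotriene and PAF receptors to 240 and 218 TPM, most of each from Alox5ap and Ptafr. In the second quantification the lipoxygenase branch summed to 206 and 229 TPM, so the order of the libraries turned over, as did that of Alox5ap, at 151 and 174 TPM. Within the list of 31 genes, Tbxas1 and Hpgds together supplied most of the terminal synthase transcripts in both libraries. These sums leave out the prostaglandin F synthase genes Akr1b3 and Fam213b, described below.

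The high Ptgs2 of replicate 2 came with higher levels of most of 16 listed genes that respond quickly to Toll-like receptor ligands. The list was chosen with earlier results of these data known, so its counts are a description and not independent support. Of the 16 genes, 14 exceeded sampling noise with a higher level in replicate 2 and 2 with a lower one, beside 32.2% and 31.3% of all genes. Beyond 2-fold, 8 were higher, beside 5.09%, and the median log2 ratio was 0.95. Il1b, the cytokine interleukin-1 beta, was 4.55-fold higher and stood 58 from the top, close to Ptgs2. Cxcl1 was 5.56-fold and Cxcl10 6.60-fold higher, both chemokine genes. Tnf was 1.85-fold higher, while the immediate early genes Fos and Egr1 were at ratios of 0.636 and 0.840. The part of this shared difference in the level of Ptgs2 was not tested.

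**Figure D3:**
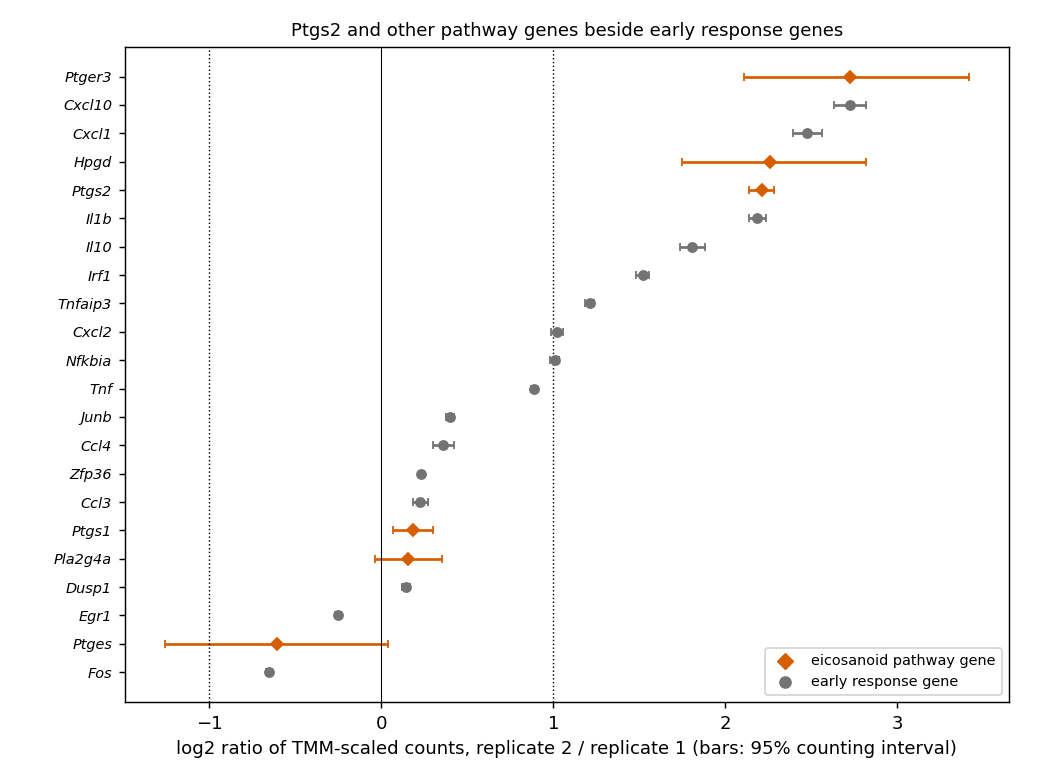
Log2 ratio of replicate 2 to replicate 1 for 16 early response genes (grey circles) and 6 eicosanoid pathway genes (orange diamonds), with bars for the 95% counting interval and dotted lines at 2-fold. Ptgs2 lies beside Il1b, whereas the points of Ptgs1, Pla2g4a and Ptges lie within 2-fold, near Dusp1, Egr1 and Fos.

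Ptgs2 and Pla2g4a are neighbours on chromosome 1, on opposite strands, 138740 bases apart with 0 protein-coding genes between them. Their ratios of 4.63 and 1.11 differed although they share this interval. Alox12 and Alox15 lie 88798 bases apart on chromosome 11, and neither reached 1 TPM.

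Transcript shares were examined in the 22 genes with a mean of 1 TPM or more. In 18 of them protein-coding transcripts held 80% or more of the TPM in both libraries, and the share of all genes that do so was not computed. The clearest exception was Ptges2. Its transcript Ptges2-203, of 765 bases and annotated with a retained intron, held 88.5% and 82.0% of the TPM, and 89% and 82.3% in the second quantification. The coding transcript Ptges2-201, of 4978 bases, was at 1.44 and 1.28 TPM, from 170 and 214 counts against 157 and 98.4 for Ptges2-203. The lower gene level of Ptges2 in replicate 2 therefore lay mostly in the retained-intron transcript.

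A second transcript with 20% or more in both libraries was found for Ptger3, Ptger4, Ptgir, Cysltr1 and Cysltr2 in the main quantification. The share of all genes with such a transcript was not computed. The second quantification gave 5 as well, of which 4 were shared, with Hpgds in place of Cysltr2. In Ptgir, both transcripts are coding, and Ptgir-201 held 27.4% in replicate 1 and 49.0% in replicate 2, with 27.3% and 46.6% in the second quantification. Ptger4-202 held 26.2% and 26.9%, and Cysltr1-201 held 31.4% and 35.6%. In Ptger3 the retained-intron transcript held 45.9% and 30.1%. Alox5ap-204, a non-coding transcript, held 24.8% of Alox5ap in replicate 1 and 3.91% in replicate 2, but 2.08% and 0% in the second quantification, so its share depended on the method.

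**Figure D4:**
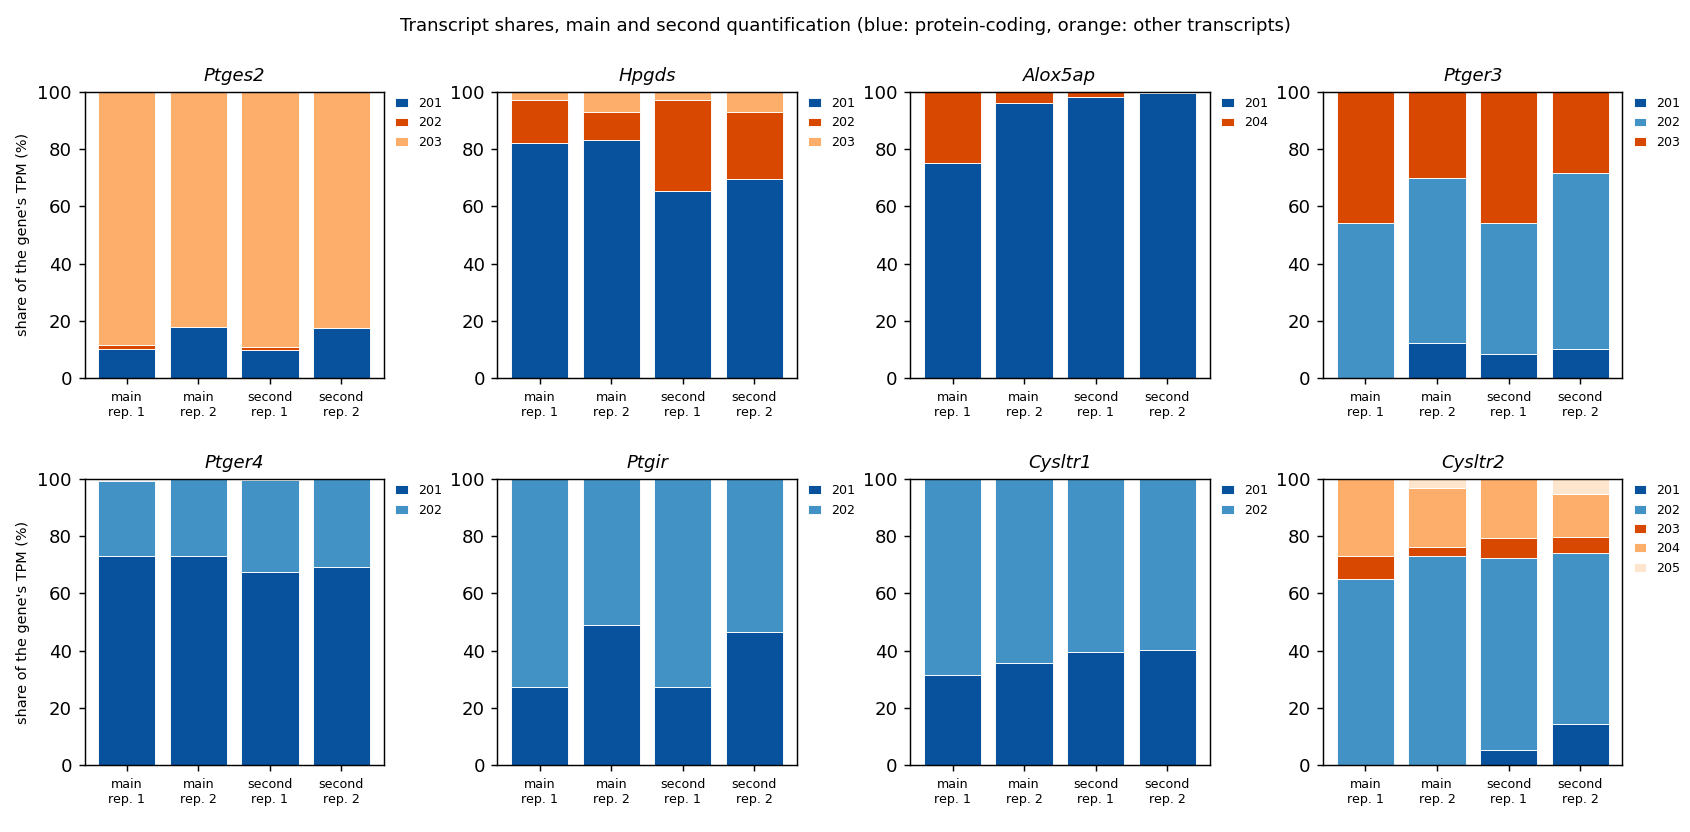
Share of each gene's TPM, in percent, by annotated transcript for 8 pathway genes, in replicates 1 and 2 of the main and of the second deposited quantification; blue shades are protein-coding transcripts and orange shades are others. Ptges2 is almost entirely orange in the 4 bars, the orange share of Alox5ap is large only in replicate 1 of the main quantification, and the darker blue share of Ptgir is larger in replicate 2 by both methods.

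Rapidly decaying mRNAs often carry the pentamer ATTTA in the 3′ UTR, where regulators of mRNA stability bind. The stretch of 30 bases with the most copies in the 3′ UTR of Ptgs2, chr1:150105794-150105823 on GRCm38, plus strand, is shown with ATTTA in capitals and holds 4 copies, of which 3 overlap.
Ptgs2 3′ UTR site: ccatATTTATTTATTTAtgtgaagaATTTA
In the most abundant coding transcript, the 3′ UTR of Ptgs2 held 14 copies in 2445 bases, and 1.99% of 9611 expressed genes held as many or more. Cysltr1 held more, 16 copies in 3474 bases (1.24% of genes), while Pla2g4a was dense, with 4 in 443 bases, a density that 1.53% of genes reached. The longer form TTATTTATT was present in Ptgs2 and Ptger2 among the 21 pathway genes with a coding transcript at 1 TPM or more, and in 6.95% of the 9611 genes. Ptgs1, Ltc4s, Lta4h, Tbxas1 and Ephx1 held 0 copies of ATTTA. The median was 2 copies over the 21 pathway genes and 1 over all, but their 3′ UTRs were longer, with a median of 1186 against 931 bases, and the median density was 1.16 against 1.27 copies per kb. The contrast between the cyclooxygenases, 14 copies in Ptgs2 and 0 in the 921 bases of Ptgs1, is a description of sequence, and no decay was measured. Hpgd and Ptger3, the other genes with large ratios, held 4 and 1 copies.

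Of 73 other genes of the same pathways, 38 reached 1 TPM in each library, beside 45.3% of all protein-coding genes. There were 34 below 1 TPM in both, and 15 of these had 0 counts in both. The 8 of highest mean level were Cotl1, Gpx4, Mgst1, Akr1b3, Pafah1b1, Fam213b, Dpep2 and Mgll. Cotl1, an actin-binding protein that also binds the lipoxygenase of the leukotriene branch, was at 517 and 397 TPM. Gpx4, which reduces lipid peroxides, was at 457 and 348 TPM, Mgst1, a microsomal glutathione transferase, at 258 and 224 TPM, and Akr1b3, an aldose reductase that can make prostaglandin F2α, at 127 and 120 TPM. Pafah1b1, a subunit of an intracellular PAF hydrolase, was at 86.6 and 79.6 TPM and Fam213b, a prostamide and prostaglandin F synthase, at 92.5 and 51.7 TPM. Dpep2, a dipeptidase that converts leukotriene D4 to leukotriene E4, was at 59.3 and 75.9 TPM.

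Of the 42 of these genes that were tested, 10 were higher in replicate 2 and 22 lower beyond sampling noise by the exact binomial test, beside 32.2% and 31.3% of all genes. Beyond 2-fold, 1 was higher and 3 were lower, beside 5.09% and 3.12%. Their median log2 ratio was -0.16, beside 0.00 over all genes. Mgll, which hydrolyses monoacylglycerols and can feed arachidonic acid into the pathway, was at 76.7 and 27.5 TPM, a ratio of 0.338. Fpr2, a formyl peptide receptor that also binds lipoxin, had 9 and 38 counts, a ratio of 2.83, and the secreted phospholipase gene Pla2g2e had 30 and 20 counts, a ratio of 0.447. Of the receptors, Ptgdr, Ptgdr2 and Ptgfr had 0 counts in both libraries and Ltb4r2 had 0 and 1. Ptger1, the receptor EP1, reached 2.70 and 5.02 TPM. The second quantification put it at 1.46 and 2.15 TPM, so its level depended on the method.

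Markers of other cell types were measured in the same libraries. Mast cell and basophil markers summed to 1.23 and 2.32 TPM, led by Kit at 0.82 and 2.32 TPM and Cpa3 at 0.240 and 0 TPM. Eosinophil markers summed to 5.69 and 6.61 TPM, led by Ccr3 at 4.30 and 5.82 TPM and Prg2 at 0.840 and 0.360 TPM. Dendritic cell markers summed to 9.96 and 5.16 TPM, led by Itgax at 7.11 and 3.88 TPM and Siglech at 1.07 and 0.570 TPM. Endothelial markers summed to 18.2 and 41.6 TPM, led by Vwf at 11.4 and 28.6 TPM and Kdr at 5.12 and 11.8 TPM, while Pecam1 was at 1.19 and 0.48 TPM and Tek had 0 counts. Stromal markers summed to 1.33 and 1.36 TPM, led by Col3a1 and Col1a2. T cell markers summed to 111 and 82.2 TPM, nearly all Cd4, with Cd3e next at 0.310 and 0 TPM, and B cell markers to 16.0 and 20.1 TPM, led by Ighm and Cd79b. Of the 4 endothelial markers tested, Vwf and Kdr were higher in replicate 2 beyond sampling noise, beside 32.2% of all genes. Pecam1 was lower, at a ratio of 0.473, beside 31.3% of all genes, and Cdh5 was at a ratio of 0.791.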

How the data were processed

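Polyadenylated RNA was sequenced from 2 libraries of a single treatment group. The authors deposited, per the file headers, a gene table with expected counts (estimated reads, not normalized), TPM, FPKM and posterior mean TPM, a transcript table of the same kind, and a second transcript table with estimated counts and TPM. Per the deposited text files the assembly was mm10 and the annotation M21, and the sources used here do not name the quantification tools. The deposited TPM and FPKM values are normalized to length and library total by the authors, and FPKM served only as an alternative.

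Members and all lists were chosen with earlier results of these data known. All 31 members are named, and of the other pathway genes the 8 of highest mean TPM and those beyond 2-fold with a mean of 1 TPM or more, and of each marker list the 2 of highest mean TPM. The single receptors with 0 or few counts, Ptgdr, Ptgdr2, Ptgfr and Ltb4r2, and Ptger1, were named after their values were seen, as were further markers. Dpep2 has 2 identifiers and was taken as the one with the most reads. Entries that name no gene were left out.

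Expected counts were rounded, scaled by TMM in edgeR 4.0.16 (R 4.3.3) and filtered by filterByExpr. An exact two-sided binomial test per gene on the effective library sizes was adjusted by Benjamini-Hochberg over 12266 genes at 0.05 (scipy 1.17.1, Python 3.11.15, pandas 2.3.3). With a single group no test between conditions exists, and nothing in the labels says that the replicates came from separate animals, so spreads and p-values describe these libraries. Ratio intervals are 95% Clopper-Pearson intervals, and like the limit of 3 counts they cover counting error only. The scripts were tested on simulated data. Promoter sequences are from RefSeq (GRCm38.p6), where 26 of 31 members matched, and 3′ UTRs from the GENCODE M21 transcripts. Alternatives were detection limits of 0.5 and 5 TPM, FPKM, posterior mean TPM, total counts, DESeq2 1.42.0 size factors, pseudocounts of 1 and 0.1, no filter on low counts, the second quantification, and leaving out each replicate. Summed levels by role under the second quantification were an alternative chosen after seeing the data. Figures were drawn with matplotlib 3.10.9.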

Additional observations from a re-analysis of the deposited data

How the results depend on the processing

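No paired analysis was possible because there was a single group of 2 libraries. The number of genes at 1 TPM or more was 20 in both libraries, 22 without replicate 1 and 20 without replicate 2, and ran from 17 at a limit of 5 TPM to 21 at 0.5 TPM. The number beyond 2-fold between libraries was 4, and 3 to 5 under other scalings, pseudocounts and the second quantification. It was 8 with no filter on low counts, because that setting adds Ptgis, Tbxa2r, Ltb4r1 and Ephx2, with 25 counts or fewer in each library. The number different beyond sampling noise was 18, and 18 or 19 under every alternative run for it. With total counts the log2 ratio of Ptges3 reversed from -0.089 to 0.029, Ptges3 and Ptger2 no longer passed, and Pla2g4a, Alox5ap and Ptger4 now passed. Ptges3 also did not pass with no filter on low counts, while Ltb4r1, tested only under that setting, passed as lower in replicate 2. In the second quantification Ptgr1 now passed, and Alox5ap and Ptger4, within noise by both, changed sign, while DESeq2 size factors changed no call among them. Mean TPM moved by more than the SD of the replicates in 11 of 31 genes under the second quantification and in 8 under the posterior mean, and the summed level in 5 of 8 roles. TPM in the second quantification was mostly lower, at a median of 0.824 and 0.896 of the main value over all genes, but higher in both libraries for Hpgds, Ptges and Ephx2. Depth limits genes with few counts, such as Alox12, Alox5, Ptges and Ltb4r1. With 2 libraries and no control, the spread between replicates of a gene rests on a single difference.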
